A study of Mus musculus with 8 samples.

Results

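Interferon-stimulated genes are the transcripts that cells switch on after sensing an interferon, and 40 of them were followed here in CD8+ T cells treated with GC7. The members were chosen by symbol, and each symbol was matched to its Ensembl gene in the GRCm38 annotation, giving 40 of the 55536 genes in the count tables. They fall into 31 antiviral and regulatory genes and 9 GTPase genes, of which 6 encode guanylate-binding proteins and 3 encode immunity-related GTPases. All samples were OT-1 T cells of C57BL/6 background, whose transgenic T cell receptor recognises the ovalbumin peptide SIINFEKL, taken from lymph nodes of mice (5 to 12 weeks old) that lack *Rag1* and therefore make no other T or B cells. Each culture received 100 nM peptide for 2 days and was then kept for 2 days with 20 ng/ml IL-2, either with 10 µM GC7 (4 libraries) or with the acetic acid vehicle, called Mock (4 libraries). GC7 resembles spermidine and blocks DHPS, the enzyme that begins hypusination of the translation factor eIF5a, and it also acts on other targets. The culture protocol names no added interferon in either group.

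Type I interferons signal through IFNAR1 and IFNAR2 to the kinases JAK1 and TYK2, which drive a complex with STAT2 and IRF9 that binds the interferon-stimulated response element (ISRE). Interferon gamma, which activated CD8+ T cells secrete themselves, signals through IFNGR1 and IFNGR2 and acts on promoters at the gamma-activated sequence (GAS). Antiviral genes such as the IFIT, OAS and MX families are best known as type I targets, whereas guanylate-binding proteins and immunity-related GTPases, which attack intracellular pathogens and their vacuoles, respond strongly to interferon gamma.

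Promoter sequence was available from RefSeq (GRCm38.p6, 250 bases before to 50 bases after each start) for 30 of the 40 members, and both strands were searched for the ISRE core (GAAA, any 2 bases, and GAAA again) and for the GAS letters (TTC, any 3 bases, and GAA). The ISRE core was present in 18 of these 30 members, against 3.44% of all 32851 promoters in the table, and the GAS letters were present in 10 of the 30, against 8.3% of all promoters. A member with several starts counted when any of them matched, whereas the percentages are over single promoters. Every one of the 7 GTPase members with an entry held an ISRE core and 4 of them held both motifs, while 11 of 23 antiviral and regulatory members held an ISRE core, 6 held GAS letters and 2 held both. The following windows lie upstream of the RefSeq start, overlap no annotated exon, and are printed 5′ to 3′ on the strand of the gene because the results below turn on these genes or on their contrast with each other. Capitals mark the matched letters of the named motif only, and a match on the other strand appears as its reverse complement. The *Igtp* and *Irgm2* windows also hold GAS letters, which are left in lower case there.
*Gbp5*, ISRE core, chr3:142496754-142496793, plus strand: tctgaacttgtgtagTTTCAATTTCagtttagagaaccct
*Gbp7*, ISRE core, chr3:142530268-142530307, plus strand: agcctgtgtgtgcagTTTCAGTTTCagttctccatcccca
*Igtp*, ISRE core, chr11:58199507-58199546, plus strand: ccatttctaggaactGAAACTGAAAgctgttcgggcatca
*Irgm2*, ISRE core, chr11:58214898-58214937, plus strand: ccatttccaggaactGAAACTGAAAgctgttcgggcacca
*Stat2*, ISRE core, chr10:128270261-128270300, plus strand: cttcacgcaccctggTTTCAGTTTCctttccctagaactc
*Oas3*, ISRE core, chr5:120777710-120777749, minus strand: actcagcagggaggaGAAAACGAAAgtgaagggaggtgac
*Isg15*, 3 overlapping ISRE cores, chr4:156200860-156200911, minus strand: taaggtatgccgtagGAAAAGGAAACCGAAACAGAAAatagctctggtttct
*Irf1*, GAS letters, chr11:53769909-53769947, plus strand: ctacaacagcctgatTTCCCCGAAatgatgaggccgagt
*Isg20*, GAS letters, chr7:78913336-78913374, plus strand: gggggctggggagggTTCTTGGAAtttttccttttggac
The *Igtp* and *Irgm2* windows shared 38 of 40 bases. A match describes letters only and was not tested as a binding site.

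The 4 Mock libraries held 20045041 to 25284730 counts and the 4 GC7 libraries 17528776 to 23449164. Levels below are in CPM, the count of a gene scaled by the tested total of its library and by its TMM factor. A gene was tested when it exceeded 3 CPM in at least 4 of the 8 libraries, on the total of each library without the TMM factor, and a gene was called higher or lower in GC7 at an FDR under 0.01, the Benjamini-Hochberg adjusted p of the edgeR quasi-likelihood test over all 11189 genes that passed. By this rule 2579 genes (23.0%) were higher and 2635 genes (23.5%) were lower in GC7. When libraries were scaled to their totals alone, the median log2 fold change of all genes moved from 0.02 to 0.11 and the split became 3346 higher and 2056 lower. The 6 T cell markers *Cd3e*, *Cd3g*, *Cd8a*, *Cd8b1*, *Thy1* and *Lck* summed to between 4040 and 4656 CPM in Mock and between 3335 and 3667 CPM in GC7. They did not move together, since *Cd8a* was higher in GC7 (log2 fold change 0.48, FDR = 3.43e-05, edgeR). *Cd3e*, *Cd3g*, *Thy1* and *Lck* were lower, and *Cd8b1* was not called. *Ms4a1*, *Siglech* and *Cdh5*, which mark B cells, plasmacytoid dendritic cells and endothelium, had no count in any library. Other markers on the same lists had counts, and these lists are read further below. No library pair agreed within sampling noise. These are bulk samples, so fewer cells expressing a gene and less of its RNA per cell cannot be told apart.

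Of the 40 members, 27 passed the expression filter and 13 did not. GC7-treated cells had higher levels of 11 and lower levels of 6 tested members, and 10 passed in neither direction. Of all tested genes 23.0% were higher and 23.5% were lower, so the share of lower members was near the background. More than 2-fold changes were found in 3 members that rose (*Mx1*, *Gbp6* and *Ifit2*), where 3.17% of all tested genes rose as far, and in 3 that fell (*Oas3*, *Dhx58* and *Isg20*), where 5.31% of all tested genes fell as far. All 4 GC7 libraries lay above all 4 Mock libraries for 11 members (28.1% of all tested genes) and below them for 7 members (27.5% of all tested genes), and the groups overlapped for the other 9. The antiviral and the GTPase genes were counted apart. Of 18 tested antiviral and regulatory members, 4 were higher, a share near the background, and 6 were lower, with a median log2 fold change of -0.03 and a range from -2.06 to 2.21. All 9 GTPase members were tested, of which 7 were higher and none lower, with a median of 0.57. By DESeq2, 8 GTPase members were higher and 0 were lower, where 2813 of 11189 tested genes were higher and 2863 lower. An unadjusted p under 0.05 (edgeR) gave the same member counts, but all genes were not counted at that limit. With each library left out in turn, 5 to 7 GTPase members were called higher, the fewest without GC7 replicate 4. *Mx1* was the 1 member that reached the filter through GC7 libraries alone, so its inclusion depended on its level in GC7.

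**Figure D1:**
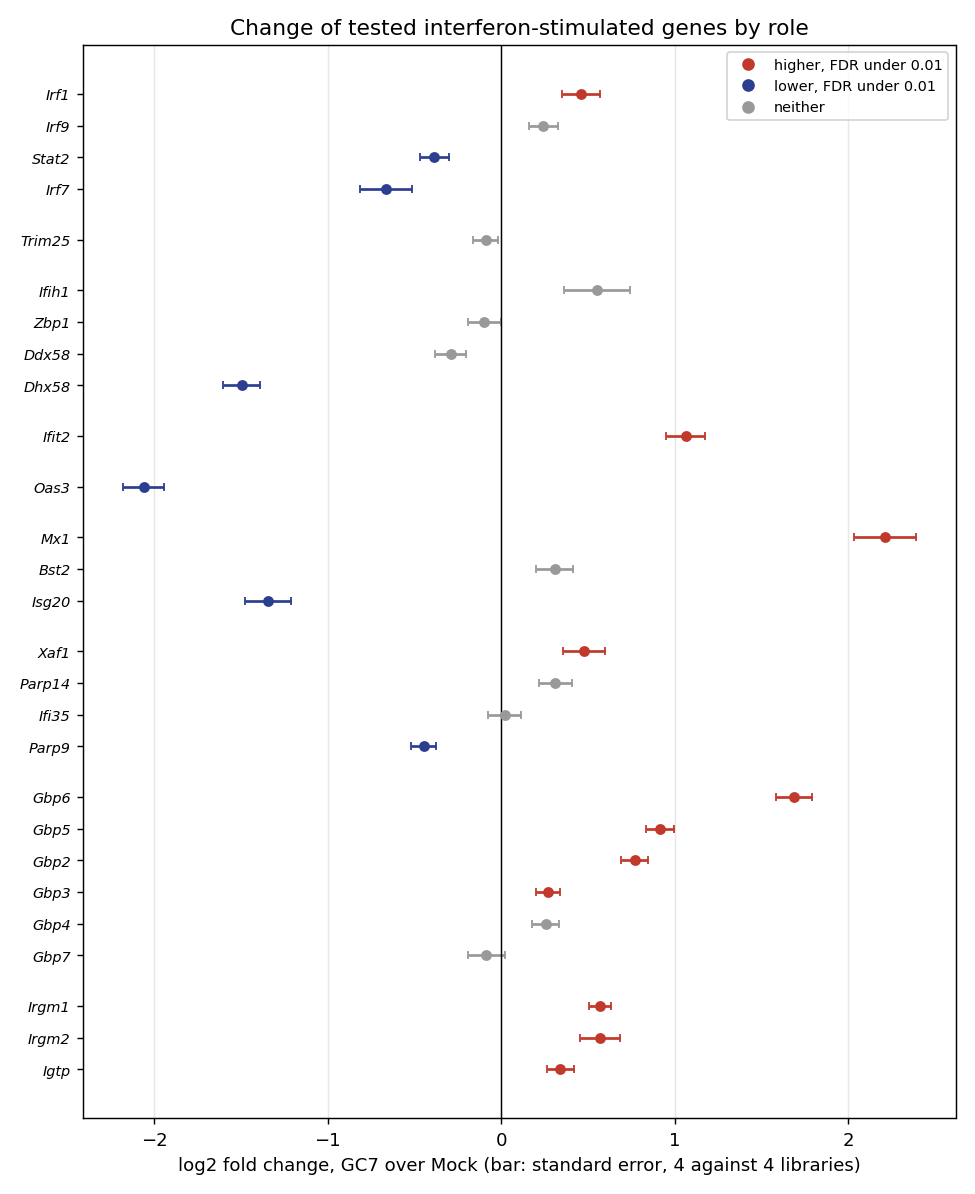
Change of the 27 tested members, grouped by role from the transcription factors at the top to the immunity-related GTPases at the bottom. The horizontal axis is the log2 fold change of GC7 over Mock, points are edgeR estimates, bars are standard errors from 4 against 4 libraries, and colours mark the call at an FDR under 0.01. The antiviral members spread from -2.06 (*Oas3*) to 2.21 (*Mx1*), and 7 of 9 GTPase members are marked higher and none lower.

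Among the transcription factors that carry the interferon signal to these genes, *Irf1* was higher in GC7 and *Stat2* and *Irf7* were lower. *Stat2*, a subunit of the complex that type I interferons activate (chromosome 10, 128270559 to 128292849), measured 43.0, 40.9, 45.4 and 47.8 CPM in Mock libraries 1 to 4 and 32.0, 30.1, 35.3 and 38.1 CPM in GC7 libraries 1 to 4. Every GC7 library was below every Mock library, and the log2 fold change was -0.39 ± 0.085 (SE, FDR = 0.00185, edgeR). With library totals as the scale this call was lost (-0.29, FDR = 0.0121, edgeR).

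*Irf1*, the factor that interferon gamma induces directly and that in turn activates GTPase and antigen-presentation genes, measured 119, 158, 136 and 148 CPM in Mock and 173, 166, 232 and 202 CPM in GC7. The groups did not overlap, and the log2 fold change was 0.46 ± 0.11 (SE, FDR = 0.00348, edgeR). The call was lost, with an FDR above 0.01, without Mock replicate 1 (0.0126), without Mock replicate 3 (0.0112), without GC7 replicate 3 (0.0107) and without GC7 replicate 4 (0.0129), all by edgeR. *Gm17334* on the opposite strand shares up to 100 exon bases with it, and reads of the pair cannot be told apart without strand.

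*Irf7*, which amplifies type I interferon production, stood at 6.92, 8.42, 7.13 and 7.62 CPM in Mock and at 3.60, 4.92, 4.46 and 5.93 CPM in GC7. All GC7 values were below all Mock values, with a log2 fold change of -0.66 ± 0.15 (SE, FDR = 0.00221, edgeR). *Irf9*, the DNA-binding part of the complex with STAT2, was present at 34.5, 36.4, 33.0 and 36.2 CPM in Mock and at 38.0, 37.4, 45.5 and 44.9 CPM in GC7. Its GC7 values were all above the Mock values, but at 0.24 ± 0.081 (SE) the change was not called (FDR = 0.0211, edgeR). *Irf9* shares up to 123 exon bases with *Rnf31* on the same strand, and *Irf7* shares up to 45 with *Phrf1* on the opposite strand.

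**Figure D2:**
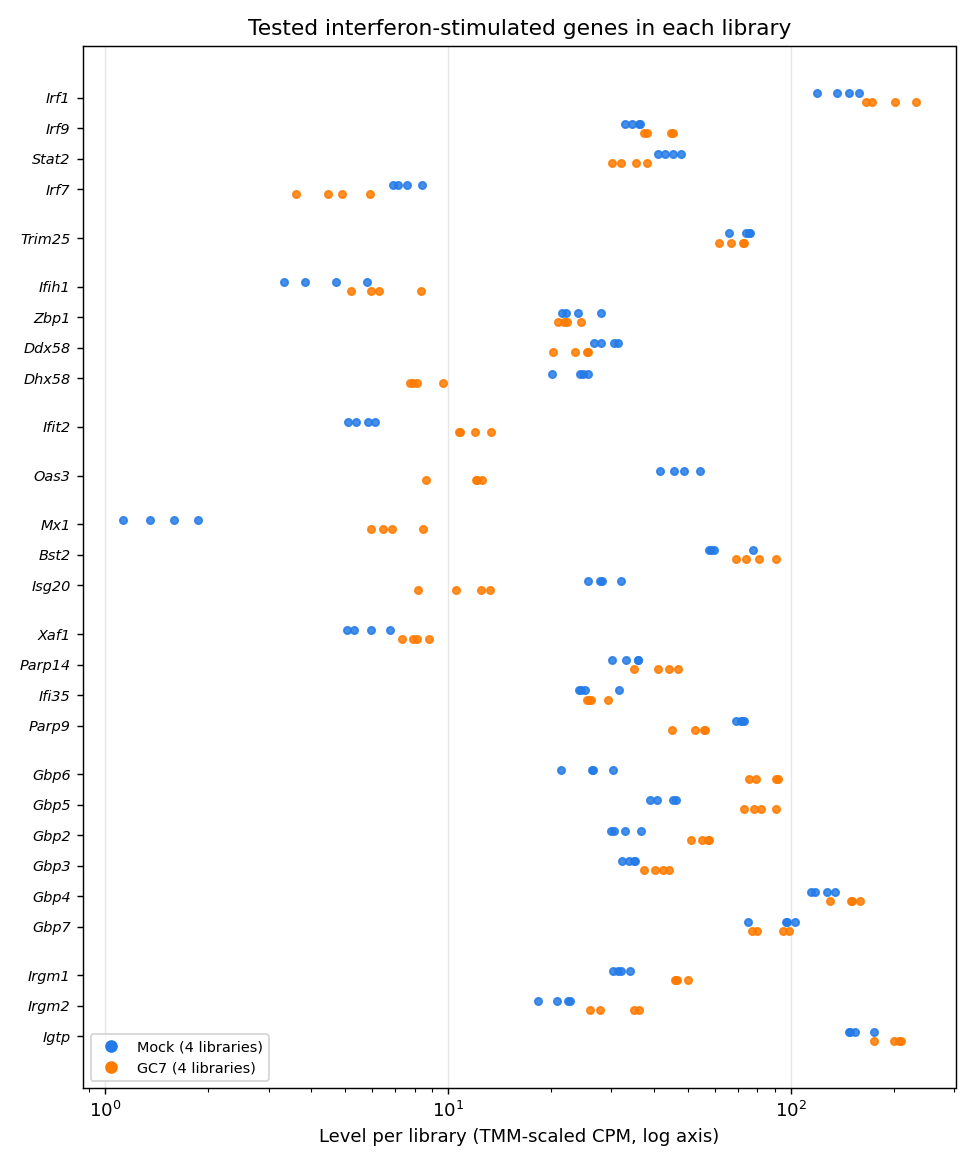
Level of the 27 tested members in each of the 8 libraries, with TMM-scaled CPM on a log axis, Mock in blue and GC7 in orange, 1 point per library. Members run in the same order of roles as in the plot of changes. Mock and GC7 points are fully apart for 18 members, with the widest gaps for *Mx1*, *Oas3*, *Gbp6*, *Dhx58* and *Isg20*.

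The sensors of foreign RNA and DNA did not move together. *Dhx58* encodes LGP2, which tunes signalling by the RNA helicases RIG-I and MDA5 (chromosome 11, 100694884 to 100704271). Its level was 20.1, 24.2, 25.6 and 24.8 CPM in Mock against 7.89, 8.15, 7.76 and 9.69 CPM in GC7. No GC7 library came within 10 CPM of a Mock library, and the gene fell 2.82-fold, a log2 fold change of -1.50 ± 0.11 (SE, FDR = 1.88e-07, edgeR).

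The helicases themselves were not called. *Ddx58*, which encodes RIG-I, averaged 29.1 ± 2.13 CPM in Mock and 23.7 ± 2.47 CPM in GC7 (SD, n = 4 each), with all GC7 libraries lower and an FDR of 0.013 (edgeR) that passed the threshold in the DESeq2 fit (0.00541). *Ifih1*, which encodes MDA5, averaged 4.42 ± 1.10 CPM in Mock and 6.45 ± 1.33 CPM in GC7 (SD, n = 4 each), with overlapping groups (FDR = 0.0256, edgeR). *Zbp1*, a sensor of left-handed nucleic acids that triggers cell death, differed by less than its SD in Mock at 23.9 ± 2.90 against 22.3 ± 1.52 CPM (SD, n = 4 each), and its groups overlapped. *Trim25*, a ubiquitin ligase that activates RIG-I and also attaches ISG15, likewise differed by no more than its SD at 73.1 ± 4.62 against 68.6 ± 5.24 CPM (SD, n = 4 each).

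The most opposed changes of the whole set were in 2 families of direct antiviral effectors. *Oas3* makes the 2-5A second messenger that activates RNase L (chromosome 5, 120753098 to 120777661). It measured 45.6, 41.6, 49.0 and 54.4 CPM in Mock and 12.1, 12.6, 8.65 and 12.1 CPM in GC7. GC7 replicate 3 was the lowest, and the highest GC7 library was still far below the lowest Mock library. The gene fell 4.17-fold, a log2 fold change of -2.06 ± 0.12 (SE, FDR = 3.4e-08, edgeR). It was the only tested member of the OAS family.

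*Mx1* encodes a dynamin-like GTPase that traps viral nucleocapsids and is disrupted in its coding sequence in most laboratory strains, C57BL/6 among them (chromosome 16, 97447035 to 97462907). It stood at 1.13, 1.87, 1.58 and 1.35 CPM in Mock and at 8.47, 6.46, 5.97 and 6.89 CPM in GC7. No Mock library reached the minimum of 3 CPM and all 4 GC7 libraries exceeded it. The gene rose 4.63-fold, a log2 fold change of 2.21 ± 0.18 (SE, FDR = 5.64e-07, edgeR), from a low level. *Mx2* lies beside it and its transcript is 94.8% identical to that of *Mx1* over 921 bases, so reads from this stretch could be assigned to either gene.

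*Ifit2*, which binds viral RNA and blocks its translation (chromosome 19, 34550694 to 34576419), measured 5.13, 5.87, 5.41 and 6.11 CPM in Mock and 13.4, 12.0, 10.9 and 10.8 CPM in GC7. It rose 2.09-fold in a comparison without overlap, with a log2 fold change of 1.06 ± 0.11 (SE, FDR = 5.95e-06, edgeR). Without GC7 replicate 1 the estimate was 0.99 and no longer above 2-fold. It was the 1 member of its family to pass the expression filter.

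*Isg20*, an exonuclease that degrades single-stranded viral RNA (chromosome 7, 78913424 to 78920396), was present at 27.7, 32.0, 25.6 and 28.1 CPM in Mock and at 13.3, 12.5, 8.20 and 10.6 CPM in GC7. The groups were apart, and it fell 2.54-fold, a log2 fold change of -1.34 ± 0.13 (SE, FDR = 3.06e-06, edgeR). *Bst2*, which encodes tetherin and holds budding virions at the membrane, averaged 63.4 ± 9.47 CPM in Mock and 78.6 ± 9.32 CPM in GC7 (SD, n = 4 each). Mock replicate 2 stood above the other Mock libraries and the groups overlapped (FDR = 0.0258, edgeR). With Mock replicate 2 left out, *Bst2* was called higher (0.42, FDR = 0.000656, edgeR).

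The ADP-ribosylating enzymes PARP9 and PARP14 went different ways. *Parp9*, which partners the ubiquitin ligase DTX3L, measured 72.2, 69.4, 71.5 and 73.1 CPM in Mock and 56.2, 55.9, 45.0 and 52.5 CPM in GC7. All GC7 libraries were lower, with a log2 fold change of -0.45 ± 0.074 (SE, FDR = 0.000252, edgeR). It overlaps *Dtx3l* on the opposite strand by up to 367 exon bases, and *Dtx3l* itself was not called (-0.02, FDR = 0.855, edgeR).

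*Parp14* averaged 33.7 ± 2.71 CPM in Mock and 41.8 ± 5.21 CPM in GC7 (SD, n = 4 each) and its groups overlapped (FDR = 0.0138, edgeR). Without GC7 replicate 3 it was called higher (0.38, FDR = 0.00201, edgeR). *Xaf1*, an antagonist of the apoptosis inhibitor XIAP, stood at 5.08, 5.95, 6.76 and 5.31 CPM in Mock and at 7.35, 8.10, 8.82 and 7.94 CPM in GC7. It rose without overlap, with a log2 fold change of 0.47 ± 0.12 (SE, FDR = 0.00475, edgeR), but the FDR reached up to 0.0173 in 5 of the 8 fits that left out 1 library, namely Mock replicates 1 and 4 and GC7 replicates 2, 3 and 4. *Ifi35* differed by less than its SD at 26.3 ± 3.52 against 26.7 ± 1.72 CPM (SD, n = 4 each).

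The guanylate-binding proteins are large GTPases that coat the vacuoles of intracellular pathogens and help to fire the inflammasome. *Gbp6* changed most among them (chromosome 5, 105270702 to 105293698). Its level was 21.4, 30.4, 26.5 and 26.4 CPM in Mock and 79.3, 90.3, 75.4 and 91.9 CPM in GC7. Every GC7 library was far above every Mock library, and the gene rose 3.22-fold, a log2 fold change of 1.69 ± 0.10 (SE, FDR = 6.05e-08, edgeR). *Gbp6* shares 99.2% of 3131 transcript bases with its neighbour *Gbp10* and 99.8% of 3923 bases with *Gm43302*, so its count depends on how reads with several positions were handled, which the sources used here do not state.

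*Gbp5*, which promotes NLRP3 inflammasome assembly, measured 45.5, 38.9, 46.1 and 40.8 CPM in Mock and 72.8, 78.2, 90.5 and 81.7 CPM in GC7. It rose 1.89-fold, a log2 fold change of 0.92 ± 0.082 (SE, FDR = 1.58e-06, edgeR), with every GC7 library above every Mock library. *Gbp2*, which acts with *Gbp5* on bacterial membranes, measured 29.8, 36.6, 32.9 and 30.5 CPM in Mock and 51.2, 57.6, 57.5 and 55.3 CPM in GC7. The groups were again apart, and the log2 fold change was 0.77 ± 0.078 (SE, FDR = 4.41e-06, edgeR).

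Smaller differences were seen in the other 3 guanylate-binding proteins. *Gbp3* stood at 34.9, 32.1, 33.7 and 35.2 CPM in Mock and at 40.1, 37.4, 42.4 and 44.1 CPM in GC7, a log2 fold change of 0.27 ± 0.071 (SE, FDR = 0.00561, edgeR) without overlap. That call was lost in 6 of the 8 fits that left out 1 library, all but those without Mock replicate 2 and without GC7 replicate 2, with an FDR of at most 0.0258 (edgeR). *Gbp4* had 117, 115, 134 and 127 CPM in Mock and 149.8, 159, 129.8 and 151 CPM in GC7. GC7 replicate 3 fell inside the Mock range, and the log2 fold change of 0.26 ± 0.076 (SE) was not called (FDR = 0.0118, edgeR), although it was without Mock replicate 3 (FDR = 0.00923, edgeR) and without GC7 replicate 3 (FDR = 0.00248, edgeR). *Gbp7* had 103, 75.0, 97.6 and 97.0 CPM in Mock and 94.6, 99.2, 77.3 and 79.5 CPM in GC7. The *Gbp7* groups overlapped fully, with a log2 fold change of -0.09 ± 0.11 (SE, FDR = 0.51, edgeR) that became 0.006 with library totals as the scale.

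Immunity-related GTPases regulate autophagy and the rupture of pathogen vacuoles in mouse cells. All 3 members rose. *Irgm1* measured 31.9, 33.9, 30.2 and 31.4 CPM in Mock and 46.1, 46.7, 50.0 and 46.2 CPM in GC7, a log2 fold change of 0.57 ± 0.064 (SE, FDR = 1.12e-05, edgeR). *Irgm2* measured 22.4, 20.8, 22.7 and 18.3 CPM in Mock and 34.9, 36.1, 25.9 and 27.8 CPM in GC7, also 0.57, with a larger error of 0.12 (SE, FDR = 0.0011, edgeR). The groups of both genes were apart, with GC7 replicates 1 and 2 above the other GC7 libraries for *Irgm2*.

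*Igtp*, which encodes IRGM3 and was the member with the highest level per kilobase of exon (77.2 CPM per kb in Mock and 97.7 CPM per kb in GC7), measured 154, 175, 148 and 149 CPM in Mock and 200.1, 209.5, 174 and 206 CPM in GC7. GC7 replicate 3 lay just under Mock replicate 2, and the log2 fold change was 0.34 ± 0.077 (SE, FDR = 0.00227, edgeR). The FDR was 0.0104 without GC7 replicate 2 and 0.0101 without GC7 replicate 4 (edgeR). *Igtp* and *Irgm2* share up to 162 exon bases on the same strand. The mean log2 CPM of the 9 GTPase members was 5.58, 5.60, 5.63 and 5.57 in Mock and 6.18, 6.25, 6.12 and 6.19 in GC7, so each GC7 library was above each Mock library, while the same mean over the 18 tested antiviral and regulatory members lay between 4.42 and 4.53 in Mock libraries and between 4.33 and 4.45 in GC7 libraries, so those groups overlapped.

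These GTPase genes sit in clusters, and 8 relatives outside the 40 members were read alongside them. In the cluster on chromosome 3 (142493978 to 142638008), which holds *Gbp5*, *Gbp7*, *Gbp3* and *Gbp2* in that order, 3 of 4 genes were higher, with *Gbp7* as the exception between *Gbp5* and *Gbp3*. In the cluster on chromosome 5 (105014150 to 105346472), which holds *Gbp8*, *Gbp9*, *Gbp4*, *Gbp10*, *Gbp6* and *Gbp11*, 5 of 6 were higher, with *Gbp4* as the exception. All 6 genes tested on chromosome 11 (*Irgm1*, *Tgtp1*, *Tgtp2*, *Ifi47*, *Igtp* and *Irgm2*) were higher, by 0.34 to 0.57 on the log2 scale. Of all tested genes 23.0% were higher and 23.5% were lower. *Tgtp1* and *Tgtp2* are 99.8% alike over 2811 transcript bases and may not be separate measurements.

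Each of the 8 relatives was higher, in a range from 0.37 to 1.72, where 23.0% of all tested genes were higher. *Gbp10* rose from 6.65 ± 0.553 to 21.9 ± 0.632 CPM (SD, n = 4 each), a log2 fold change of 1.72 ± 0.087 (SE, FDR = 1.09e-08, edgeR), close to that of its near-identical neighbour *Gbp6*. *Gbp9* rose by 1.27 ± 0.098 (SE, FDR = 4.31e-07, edgeR) and *Gbp11* by 1.03 ± 0.10 (SE, FDR = 4.27e-06, edgeR). *Iigp1*, the effector that strips parasite vacuoles, rose from 2.66 ± 0.672 to 7.68 ± 2.50 CPM (SD, n = 4 each), a log2 fold change of 1.53 ± 0.25 (SE, FDR = 0.000216, edgeR). It exceeded the minimum of 3 CPM in 1 Mock and 4 GC7 libraries, so its inclusion depended on its level in GC7. Transcripts of *Gbp4*, *Gbp6*, *Gbp8*, *Gbp9*, *Gbp10* and *Gbp11* are over 90% alike in stretches of at least 200 bases, so the 5 that rose are not separate measurements to the extent that their reads were shared.

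**Figure D3:**
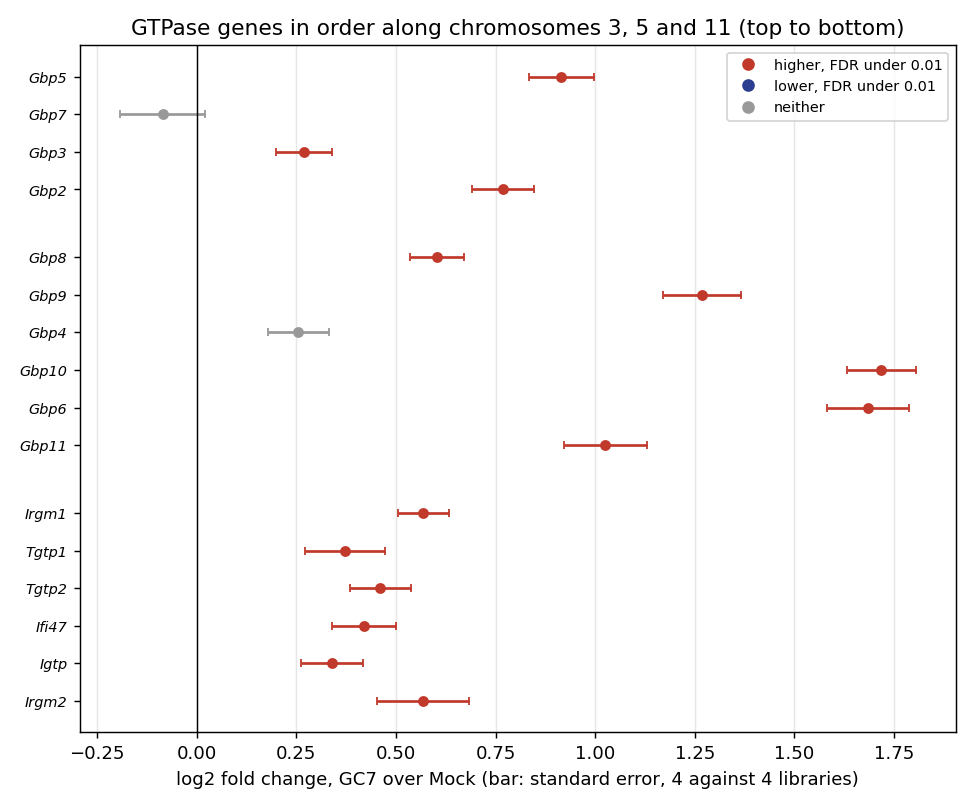
GTPase genes in their order along chromosomes 3, 5 and 11, from top to bottom, with the log2 fold change of GC7 over Mock on the horizontal axis, standard errors as bars and colours for the call at an FDR under 0.01. Members and relatives are shown together, and *Gbp7* (-0.09) and *Gbp4* (0.26) are the 2 genes not called.

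The 13 members under the expression filter include several of the best known interferon-stimulated genes. *Isg15*, the ubiquitin-like modifier that is a standard mark of a type I response, had 11, 38, 12 and 15 raw counts in Mock and 13, 18, 12 and 19 in GC7, so its level was low in every library and did not separate the groups. *Rsad2*, which encodes viperin, had 39 counts summed over Mock and 36 over GC7. *Usp18*, which removes ISG15, had 7 and 13, *Ifit3* had 15 and 21, and *Oas2*, *Oasl2*, *Oasl1* and *Oas1a* had 10 counts or fewer summed over either group. *Ifit3b* and *Ifi44* had none in any library, which allows up to 3 counts, or 0.125 to 0.167 CPM depending on the library. These limits cover counting error only. *Ifit3b* is 97.8% identical to *Ifit3* over 1700 transcript bases, and *Oas1a* is 97.6% identical to *Oas1g* over 1861. The low or absent counts of *Ifit3*, *Ifit3b* and *Oas1a* thus also depend on how reads with several positions were handled, which is not stated. In the fit without a filter none of the 8 of these genes with counts was called, with an FDR of 0.563 for *Isg15* (-0.28 ± 0.33, SE) and of 0.887 for *Rsad2* (-0.11 ± 0.45, SE), both by edgeR. The other 3 members under the filter follow.

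*Cmpk2*, a mitochondrial nucleotide kinase beside *Rsad2*, had 42, 59, 33 and 73 counts in Mock and 19, 16, 7 and 23 in GC7. The groups did not overlap, and with the filterByExpr filter, which keeps it, the log2 fold change was -1.69 (FDR = 0.000445, edgeR). *Mx2*, the neighbour of *Mx1*, had 1, 1, 2 and 2 counts in Mock and 10, 9, 15 and 19 in GC7, and without a filter its fitted log2 fold change was 3.04 (FDR = 3.37e-06, edgeR), a size that depends on how 6 counts in all Mock libraries are treated. *Ifit1* had 8, 8, 9 and 5 counts in Mock and 3, 2, 2 and 1 in GC7, and was not called in the fit without a filter (-1.83, FDR = 0.0203, edgeR). Within the IFIT family *Ifit2* was thus called higher, while *Ifit1*, on the same stretch of chromosome 19, had the lower counts in GC7.

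**Figure D4:**
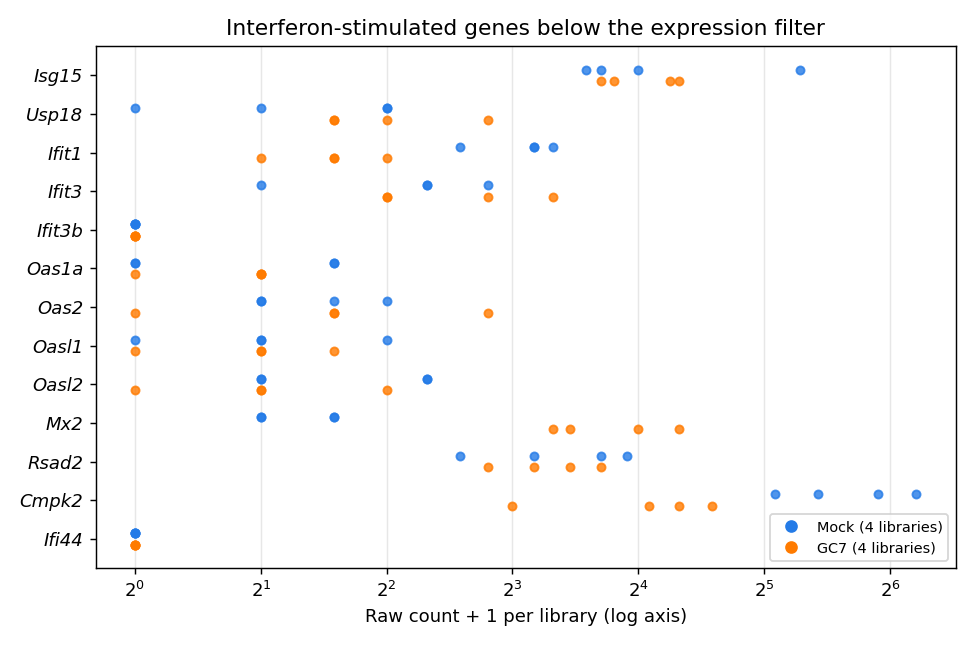
Raw count plus 1 in each library for the 13 members under the filter, on a log axis, Mock in blue and GC7 in orange. *Cmpk2* and *Ifit1* have their GC7 points to the left of all Mock points, *Mx2* has them to the right, and *Ifit3b* and *Ifi44* lie at a count of 0 throughout.

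Upstream of these genes, 39 further genes of interferon production and signalling were read, of which 27 were tested, 8 were higher and 8 were lower, shares near the 23.0% higher and 23.5% lower of all tested genes. Among the ligands, *Ifng*, which encodes interferon gamma, measured 20.9, 21.5, 14.4 and 13.8 CPM in Mock and 54.4, 37.7, 46.3 and 39.0 CPM in GC7. Every GC7 library was above every Mock library, and *Ifng* rose 2.50-fold, a log2 fold change of 1.32 ± 0.16 (SE, FDR = 1.81e-05, edgeR). This is RNA, and interferon gamma protein was not measured in these libraries. The study reports less of the protein in GC7-treated cells restimulated with peptide, a step that the protocol of these cultures does not name. None of 8 type I and type III ligand genes passed the filter, and 7 of them had no count in any library.

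The chains of the interferon gamma receptor moved in opposite directions. *Ifngr1*, the ligand-binding chain, fell from 354.6 ± 18.9 to 252 ± 16.7 CPM (SD, n = 4 each), a log2 fold change of -0.49 ± 0.067 (SE, FDR = 5.11e-05, edgeR). *Ifngr2*, the signalling chain that T cells keep low, measured 3.18, 2.85, 2.89 and 2.76 CPM in Mock and 7.20, 6.51, 8.20 and 8.06 CPM in GC7. *Ifngr2* rose 2.56-fold, a log2 fold change of 1.36 ± 0.13 (SE, FDR = 2.17e-06, edgeR), without overlap. It exceeded the minimum of 3 CPM in 1 Mock and 4 GC7 libraries, so its inclusion depended on its level in GC7. For the type I receptor, *Ifnar2* rose by 0.45 ± 0.082 (SE, FDR = 0.000533, edgeR) and *Ifnar1* was not called (0.16 ± 0.061, SE, FDR = 0.0367, edgeR).

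Of 6 genes listed as inhibitors of the pathway, 4 were lower (*Socs1*, *Socs3*, *Ptpn2* and *Ptpn6*) and 1 was higher (*Ptpn11*, a phosphatase with positive roles as well). Of all tested genes 23.5% were lower and 23.0% were higher. The inhibitors other than *Socs3* were named with their values known. *Socs3*, a feedback inhibitor of cytokine receptors, measured 57.0, 80.0, 60.4 and 61.1 CPM in Mock and 17.96, 18.07, 24.7 and 21.6 CPM in GC7, a fall of 1.65 ± 0.13 (SE) on the log2 scale (FDR = 3.9e-07, edgeR). In the sensing list *Ikbke*, a kinase that phosphorylates IRF3 and IRF7, rose by 1.13 ± 0.14 (SE, FDR = 2.41e-05, edgeR), and its GC7 libraries ranged from 102 to 173 CPM with replicate 3 the highest. Without GC7 replicate 3 its estimate was 0.95, under 2-fold.

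**Figure D5:**
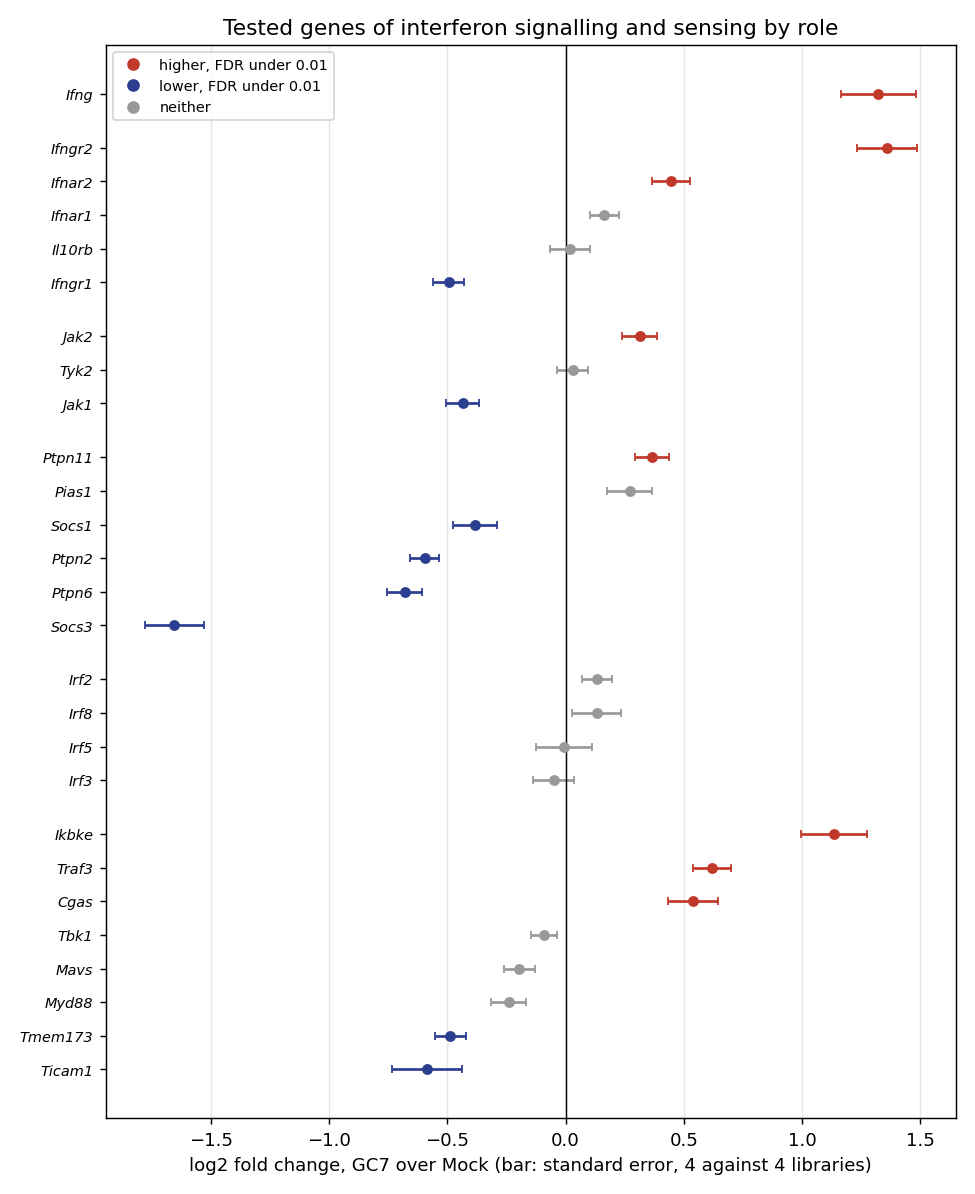
Change of the 27 tested genes of interferon production and signalling, grouped from top to bottom as ligand, receptors, receptor kinases, inhibitors, other interferon regulatory factors, and sensing. The horizontal axis is the log2 fold change of GC7 over Mock, bars are standard errors from 4 against 4 libraries, and colours mark the call at an FDR under 0.01. *Ifngr2*, *Ifng* and *Ikbke* lie above 1 and *Socs3* lies at -1.65.

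A second list of 49 interferon-stimulated genes outside the 40 members had 40 tested genes, of which 20 were higher and 10 were lower, where 23.0% of all tested genes were higher and 23.5% lower, so the share of lower genes was near the background. The 20 include the 8 GTPase relatives described above. Among the tested genes of this list the IFITM genes, whose proteins block virus entry at membranes, fell furthest. *Ifi204*, under the filter, had 75 counts summed over Mock and 10 over GC7. *Ifitm1* measured 445, 713, 446 and 439 CPM in Mock and 73.5, 85.3, 52.2 and 68.6 CPM in GC7, a log2 fold change of -2.87 ± 0.18 (SE, FDR = 7.38e-08, edgeR), and with each library left out in turn it ran from -2.98 to -2.66. *Ifitm3* fell by 2.27 ± 0.17 (SE, FDR = 3.4e-07, edgeR) and *Ifitm2* fell by 2.13 ± 0.093 (SE, FDR = 3.39e-09, edgeR). *Ube2l6*, which conjugates ISG15, fell by 1.29 ± 0.13 (SE, FDR = 4.48e-06, edgeR). It exceeded the minimum of 3 CPM in 4 Mock libraries and 1 GC7 library, so its inclusion depended on its level in Mock.

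In the other direction, *Trim30a*, a ubiquitin ligase that restrains inflammatory signalling, rose by 1.06 ± 0.081 (SE, FDR = 3.76e-07, edgeR). *Oas1b*, a relative of the OAS members that is truncated in most laboratory strains, rose by 1.14 ± 0.20 (SE, FDR = 0.000416, edgeR) from 4.37 ± 1.36 to 9.71 ± 1.66 CPM (SD, n = 4 each). Within the OAS family *Oas1b* was thus higher in GC7 and *Oas3* lower, and *Oas1c* was not called (-0.11, FDR = 0.44, edgeR).

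Both motifs occurred among members that were higher and among members that were lower, and the shares were not tested. Among members with a promoter entry, 6 of 9 that were higher held an ISRE core and 5 held GAS letters, against 2 and 1 of the 4 that were lower. Of 7 that were called in neither direction, 4 held the ISRE core and 3 held GAS letters, and of 10 that were not tested, 6 held the ISRE core and 1 held GAS letters. *Oas3*, which fell, and *Gbp5*, which rose, both carry an ISRE core in the windows printed above, and *Gbp7*, which was not called, carries an ISRE core and GAS letters like *Gbp5*.

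Markers of other cell types were read in the same libraries. The CD4 T cell, B cell and NK cell lists held no tested gene, and their untested markers reached at most 1.15, 1.23 and 2.56 CPM in any library. The plasmacytoid dendritic cell list summed to between 16.1 and 21.5 CPM in Mock and between 64.8 and 80.8 CPM in GC7, of which *Cox6a2*, a cytochrome oxidase subunit also made in muscle, averaged 2.16 CPM in Mock and 62.9 CPM in GC7 and passed the filter through GC7 libraries alone. In the same list *Tcf4* fell from 16.1 to 12.5 CPM on average (log2 fold change -0.37, FDR = 0.0071, edgeR), *Siglech*, the defining marker, was at 0, and *Ccr9* stayed below 1 CPM. In the conventional dendritic cell list, *Zbtb46* averaged 0.457 CPM in Mock and 4.11 CPM in GC7, *Xcr1* averaged 5.14 CPM in Mock and 0.631 CPM in GC7, and the other 3 markers stayed below 1 CPM. *Zbtb46* passed the filter through GC7 libraries alone and *Xcr1* through Mock libraries alone. *Cd68* was the 1 tested gene of 5 macrophage markers and was not called (FDR = 0.143, edgeR). *Pecam1*, the 1 tested gene of 5 stromal and endothelial markers, fell by 0.80 (FDR = 4.26e-07, edgeR), and these 5 summed to between 51.6 and 56.3 CPM in Mock and between 30.5 and 32.2 CPM in GC7. The part of these markers in the results above was not tested.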

How the data were processed

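The authors deposited raw counts per Ensembl gene, 1 table for each of 8 libraries, without normalisation or pooling. Reads had been trimmed with Cutadapt, aligned to GRCm38 with STAR and counted with featureCounts. The strand setting and the handling of reads with several positions are not given in the sources used here. All 55536 gene identifiers matched the annotation. Genes over 3 CPM in at least 4 libraries were kept and tested with edgeR (version 4.0.16, R version 4.3.3), using TMM factors, group as the only term and the quasi-likelihood F test, with Benjamini-Hochberg adjustment over 11189 genes. The SE of a log2 fold change is its size over the square root of F. Alternatives were RLE factors, library totals, DESeq2 (version 1.42.0), no filter, filterByExpr, a replicate block, and each library left out in turn with the tested genes held fixed. Groups came from the sample titles, and the study's methods call the replicates biological. The members and lists were chosen with earlier results of these data known. A gene of the signalling list is not reported here.

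Per-library values were given for the transcription factors, for up to 8 called members with the largest rise and up to 8 with the largest fall, and for all GTPase members. *Isg15*, *Cmpk2*, *Mx2* and *Ifit1* had theirs as untested members. Of the other lists, *Ifng*, *Ifnar1*, *Ifnar2*, *Ifngr1*, *Ifngr2* and genes past an FDR of 0.01 and 2-fold were named. *Dtx3l*, *Oas1c*, *Ifi204*, *Tcf4* and the inhibitors other than *Socs3* are not covered by it and were picked with their values known. The minimum of 3 CPM, taken on library totals, corresponds to 52.6 counts in the smallest library and 75.9 in the largest, which limits precision for the lowest genes.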

Additional observations from a re-analysis of the deposited data

Results flagged for a closer look

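Dixon's ratio, the gap of the most extreme library to its nearest neighbour over the whole range, passed its 95% critical value in 6 of 88 groups tested, where chance gives about 4.4. Mock replicate 2 was the highest Mock library for *Ifitm1* (ratio 0.973, 713.2 CPM with the next at 446.2 CPM), *Bst2* (ratio 0.893, 77.55 CPM with the next at 59.75 CPM) and *Ifi35* (ratio 0.864, 31.55 CPM with the next at 25.07 CPM). GC7 replicate 3 was the lowest GC7 library for *Oas3* (ratio 0.864, 8.65 CPM with the next at 12.07 CPM) and the highest for *Irgm1* (ratio 0.835, 50.0 CPM with the next at 46.74 CPM). GC7 replicate 4 was the highest for *Ifi35* (ratio 0.837, 29.24 CPM with the next at 26.12 CPM).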

How the results depend on the processing

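The counts of members were close to the stated ones under most alternatives. Without a filter, 773 genes were more than 2-fold higher and 1189 lower, and with filterByExpr 601 and 1013, since more genes were tested. The number of antiviral and regulatory members called higher was 7 of 18 with library totals and 8 of 29 without a filter. Of all genes, 3346 of 11189 were higher with library totals and 3335 of 28350 without a filter. With library totals 2 GTPase members were more than 2-fold higher, where 434 of all 11189 genes were. With each library left out in turn, 7 to 12 members were higher (7 without GC7 replicate 4), 2 to 5 antiviral and regulatory members were higher (2 without Mock replicate 1 and 2 without GC7 replicate 4), and 1 to 2 of these were more than 2-fold higher (1 without GC7 replicate 1). In these same 8 fits 5 to 7 GTPase members were higher (5 without GC7 replicate 4), and the 6 lower members were called lower every time. Of all 11189 genes, 2096 (without GC7 replicate 4) to 2859 (without Mock replicate 2) were higher in these fits. Uncalled genes turned direction in *Trim25* (0.0038 with library totals), *Gbp7* (0.006 with library totals), *Zbp1* (0.0204 without Mock replicate 2 and GC7 replicate 3, an alternative added after seeing the data) and *Ifi35* (-0.031 to 0.1246 with each library left out in turn, below 0 without Mock replicate 1, 3 or 4 and without GC7 replicate 4). The cause was not tested. With those libraries both left out, 14 members were higher and 7 lower, among them all 11 and all 6 called with every library. Of all 11189 genes, 3223 were higher and 3149 lower in that fit.

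Same-numbered Mock and GC7 libraries deviated together with correlations of 0.27, -0.12, 0.20 and -0.18. These differ in sign and cannot show whether the numbers pair the samples, which the sample titles do not state. With the replicate block 11 members were higher and 6 were lower, as without it, and 2382 of all genes were higher and 2485 lower. Depth limits the members under the filter, whose highest count was 73.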

Other observations

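Other interferon-stimulated genes changed by less than 2-fold, and the following were chosen after their values were seen. *Nlrc5*, the transactivator of MHC class I genes, rose from 141 ± 19.3 to 249 ± 9.65 CPM (SD, n = 4 each), a log2 fold change of 0.82 ± 0.091 (SE, FDR = 8.88e-06, edgeR). *Slfn2*, which protects T cell quiescence and tRNAs, rose by 0.84 ± 0.11 (SE, FDR = 2.55e-05, edgeR), and the DNA sensor *Aim2* rose by 0.65 ± 0.069 (SE, FDR = 6.86e-06, edgeR). *Samhd1*, which hydrolyses deoxynucleotides, fell from 471 ± 22.9 to 273 ± 11.04 CPM (SD, n = 4 each), a log2 fold change of -0.79 ± 0.062 (SE, FDR = 4.74e-07, edgeR), and *Epsti1* fell by 0.74 ± 0.067 (SE, FDR = 1.56e-06, edgeR). In DNA sensing, *Cgas* rose by 0.54 ± 0.11 (SE, FDR = 0.000844, edgeR) and *Tmem173*, which encodes its partner STING, fell by 0.49 ± 0.065 (SE, FDR = 4.34e-05, edgeR).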
